A study of Mus musculus with 12 samples.

Results

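Foxp3, Izumo1r and Nt5e, genes whose products are abundant in regulatory T cells, were read in naive CD4 T cells that had been sorted as negative for a Foxp3 reporter. The 3 genes were taken by symbol from the deposited table of 10073 genes, and all 3 were among the 10021 tested, those averaging 0.5 RPKM or more over the libraries. RPKM is the number of reads on a gene per kilobase of its length and per M (mega) of reads in the library. The table holds 12 RNA-seq libraries, 4 sorted populations from each of 3 mice. Population A was Nur77-GFPlo and Ly6C+, B was Nur77-GFPint and Ly6C+, C was Nur77-GFPint and Ly6Cneg, and D was Nur77-GFPhi and Ly6Cneg. Cells of every population were CD4+, Foxp3-RFPneg and CD44lo, came from spleen and lymph nodes, and received no stimulus. Every mouse carried the Tg(Nr4a1-EGFP)GY139Gsat transgene, in which regulatory DNA of Nr4a1 (Nur77), a gene induced by T cell receptor (TCR) signalling, drives GFP, together with the Foxp3tm1Flv allele, which places an RFP reporter in the Foxp3 locus, on a C57/BL6 background. GFP was thus used as a readout of recent TCR signal, and RFP to leave out regulatory T cells. The age and sex of the mice are not given, and no library of RFP-positive cells was analysed here. Libraries carry the letter of their population and the number of their mouse, as in A1.

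Foxp3 encodes the forkhead transcription factor that defines the regulatory T cell lineage, which restrains other T cells. Izumo1r encodes a surface protein of the folate receptor family, called folate receptor 4 on T cells and Juno on the egg, and is abundant on regulatory T cells of the mouse. Nt5e encodes CD73, a surface enzyme that turns AMP into adenosine, which dampens T cell activation through the receptor encoded by Adora2a. In the mouse, high folate receptor 4 and CD73 together also mark CD4 T cells that are anergic, that is, poorly responsive after meeting antigen, and that do not express Foxp3.

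The start regions of the 3 genes are shown because all 3 were high in the same 6 libraries. They come from RefSeq on GRCm38.p6, and each window runs from 250 bases before to 50 bases after an annotated transcription start, 5′ to 3′ on the strand of the gene. Capitals mark matches to the motifs searched. Foxp3 has 2 annotated starts, with windows at chrX:7579426-7579725 and chrX:7580233-7580532 (plus strand). The window of Izumo1r is chr9:14903718-14904017 (minus strand), and that of Nt5e is chr9:88327359-88327658 (plus strand).
Foxp3, the first start: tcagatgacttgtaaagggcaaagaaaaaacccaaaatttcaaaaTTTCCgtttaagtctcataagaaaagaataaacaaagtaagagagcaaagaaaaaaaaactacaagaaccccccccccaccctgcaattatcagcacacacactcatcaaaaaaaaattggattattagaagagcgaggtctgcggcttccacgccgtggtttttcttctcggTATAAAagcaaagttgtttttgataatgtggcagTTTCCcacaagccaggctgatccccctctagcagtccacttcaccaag
Foxp3, the second start: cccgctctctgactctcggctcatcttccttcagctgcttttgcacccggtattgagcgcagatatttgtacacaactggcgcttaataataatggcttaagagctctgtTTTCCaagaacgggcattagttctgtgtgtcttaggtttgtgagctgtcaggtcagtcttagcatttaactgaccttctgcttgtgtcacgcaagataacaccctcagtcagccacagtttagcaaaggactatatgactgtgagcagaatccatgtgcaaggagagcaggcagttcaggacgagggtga
Izumo1r: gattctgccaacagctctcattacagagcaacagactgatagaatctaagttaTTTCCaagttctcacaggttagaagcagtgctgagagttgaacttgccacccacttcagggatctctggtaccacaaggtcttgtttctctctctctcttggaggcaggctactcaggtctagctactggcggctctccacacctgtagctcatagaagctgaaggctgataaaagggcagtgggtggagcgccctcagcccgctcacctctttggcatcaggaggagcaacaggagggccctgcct
Nt5e: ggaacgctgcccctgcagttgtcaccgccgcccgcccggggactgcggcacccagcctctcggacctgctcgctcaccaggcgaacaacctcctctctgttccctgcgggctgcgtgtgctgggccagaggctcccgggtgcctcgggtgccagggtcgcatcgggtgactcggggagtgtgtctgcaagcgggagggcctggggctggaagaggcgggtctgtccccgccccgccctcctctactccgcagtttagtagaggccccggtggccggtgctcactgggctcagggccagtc
The motifs, searched on both strands, were the NFAT core GGAAA (in 61.3% of 32851 such windows over all genes), the AP-1 element TGANTCA (7.8%), the NR4A monomer element AAAGGTCA (1.5%), the Egr element GCGNGGGCG (5.6%), the CRE TGACGTCA (1.8%), the FOX core TGTTTAC (3.6%), the RUNX element TGTGGTT (5.3%) and the TATA element TATAAA (13.6%). The NFAT core matched at 205 bases before and 2 after the first Foxp3 start, at 140 before the second and at 197 before that of Izumo1r, each time on the strand opposite to the one printed, which reads TTTCC there. The TATA element matched at 32 bases before the first Foxp3 start. No other motif had a match in these windows, and Nt5e had none. The windows also differ in composition. GC content was 71.0% with 23 CpG in Nt5e, 52.3% with 3 CpG in Izumo1r, and 40.7% with 6 and 47.7% with 8 at the Foxp3 starts, against a median of 52.7% and 7 CpG over all windows.

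Depth recovered from the RPKM steps was 6.31 (A3) to 9.07 (C1) M reads a library. The labels tie each mouse number to 1 animal, so each animal gave a library to every population, and n counts libraries. Transcripts of the sorting genes did not follow the gates. Nr4a1 was 57.7, 26.1 and 22.9 RPKM in A1, A2 and A3, 36.0, 73.3 and 64.6 in B1, B2 and B3, 23.4 to 28.3 in C and 58.7 to 67.8 in D. Ly6c1, a gene for Ly6C, averaged 64.3 ± 4.36 RPKM in the libraries labelled C (Ly6C negative) and 64.6 ± 7.40 in those labelled A (Ly6C positive), and 43.7 ± 5.10 in D and 43.9 ± 6.53 in B (SD, n = 3 each). A1 and B1 thus each stood apart from the other libraries of their label in Nr4a1, and Ly6c1 ran against the Ly6C label in C and B. In Ly6c1, A1 did not stand apart, at 63.0 RPKM between A2 (58.1) and A3 (72.6). B1 was 50.2 RPKM in Ly6c1, above B2 (37.1) and B3 (44.5). Whether labels were exchanged between libraries was not tested, so populations below are the libraries as labelled. Differences between populations that involve A or B are given with and without A1 and B1. Since A1 and B1 were set apart by Nr4a1, which followed the 3 genes over the libraries, p-values without them are descriptions and no independent support. C3 held plasma cell transcripts, with 955 RPKM summed over the 3 measured of 10 B and plasma cell markers, against 8.11 to 30.5 in the other 11 libraries. Cd4 was 224 to 250 RPKM in the 12 libraries, and the 10 naive CD4 T cell markers, all measured, summed to 2103 to 2361 RPKM.

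Foxp3 was listed at a low value above 0 in every library, in cells that had been sorted as reporter-negative. It was 3.76, 1.15 and 1.53 RPKM in A1, A2 and A3, 1.51, 4.00 and 3.88 in B1, B2 and B3, 1.38, 1.45 and 1.27 in C1, C2 and C3, and 3.77, 3.25 and 3.99 in D1, D2 and D3. The 3 D libraries, A1, B2 and B3 were high, and the others were low with no value between 1.53 and 3.25. Population means were 2.15 ± 1.41 RPKM for A, 3.13 ± 1.41 for B, 1.36 ± 0.090 for C and 3.67 ± 0.381 for D (SD, n = 3 each). These values rest on 34 (C3) to 136 (D3) reads a library over the 3928 bases that the table gives as the length of Foxp3 (Entrez 20371), and its mean over libraries stood at percentile 11.5 of the table. Exact Poisson 95% intervals were 0.88 to 1.77 RPKM in C3 and 3.35 to 4.72 in D3, and they cover counting error only.

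The Foxp3 locus is crowded, which bears on these few reads. In GENCODE M21, Foxp3 spans chrX:7573644-7595245 and its exons share bases with those of 4 other genes. Ccdc22, a widely expressed gene on the opposite strand, shares 590 exonic bases at the 3′ end of Foxp3, and Ppp1r3f shares 266 at the other end. The noncoding Gm36995 and Flicr, which had no values here, share 373 and 853. GENCODE gives Foxp3 4577 exonic bases, while the length listed with its RPKM was 3928. Which of these overlaps lie in the counted exons is not known. The cDNA and library kits do not mark strand and no source used here gives the counting rule, so reads from Foxp3 and from these genes cannot be told apart where they overlap. Ccdc22 was 14.0 to 16.1 RPKM in D, against 13.9 to 15.3 in C, and its highest value was 19.0 in B2. Ppp1r3f was 3.86 to 4.94 RPKM in D, against 3.36 to 4.39 in C. Neither measured neighbour had a difference between D and C of the size seen in Foxp3. Pearson's r of log2(RPKM + 0.5) with Foxp3 over the 12 libraries was 0.415 for Ppp1r3f and 0.502 for Ccdc22. These values do not cover Gm36995 and Flicr. The part of overlap in the low Foxp3 values and in their differences was not tested. No GENCODE gene overlapped Izumo1r or Nt5e.

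Izumo1r was the most abundant of the 3, at percentile 84.7 of the table. It was 53.2, 23.1 and 18.1 RPKM in A1, A2 and A3, 28.8, 55.3 and 59.3 in B1, B2 and B3, 22.6, 25.5 and 21.8 in C1, C2 and C3, and 54.8, 65.5 and 60.1 in D1, D2 and D3. The same 6 libraries were high as for Foxp3, and no value lay between 28.8 and 53.2 RPKM. Population means were 31.5 ± 19.0 RPKM for A, 47.8 ± 16.5 for B, 23.3 ± 1.99 for C and 60.1 ± 5.36 for D (SD, n = 3 each). With 269 to 1294 reads a library over 2357 bases (Entrez 64931), its exact Poisson 95% interval was 26.2 to 31.6 RPKM in B1, the highest of the low libraries.

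Nt5e stood near the middle of the table, at percentile 48.1. It was 15.8, 7.62 and 7.58 RPKM in A1, A2 and A3, 8.84, 18.0 and 14.6 in B1, B2 and B3, 7.75, 8.44 and 6.32 in C1, C2 and C3, and 15.1, 17.6 and 16.8 in D1, D2 and D3. Again D1, D2, D3, A1, B2 and B3 were high, and no value lay between 8.84 and 14.6 RPKM. Population means were 10.3 ± 4.74 RPKM for A, 13.8 ± 4.61 for B, 7.50 ± 1.08 for C and 16.5 ± 1.30 for D (SD, n = 3 each), from 218 to 782 reads a library over 5063 bases (Entrez 23959).

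**Figure D1:**
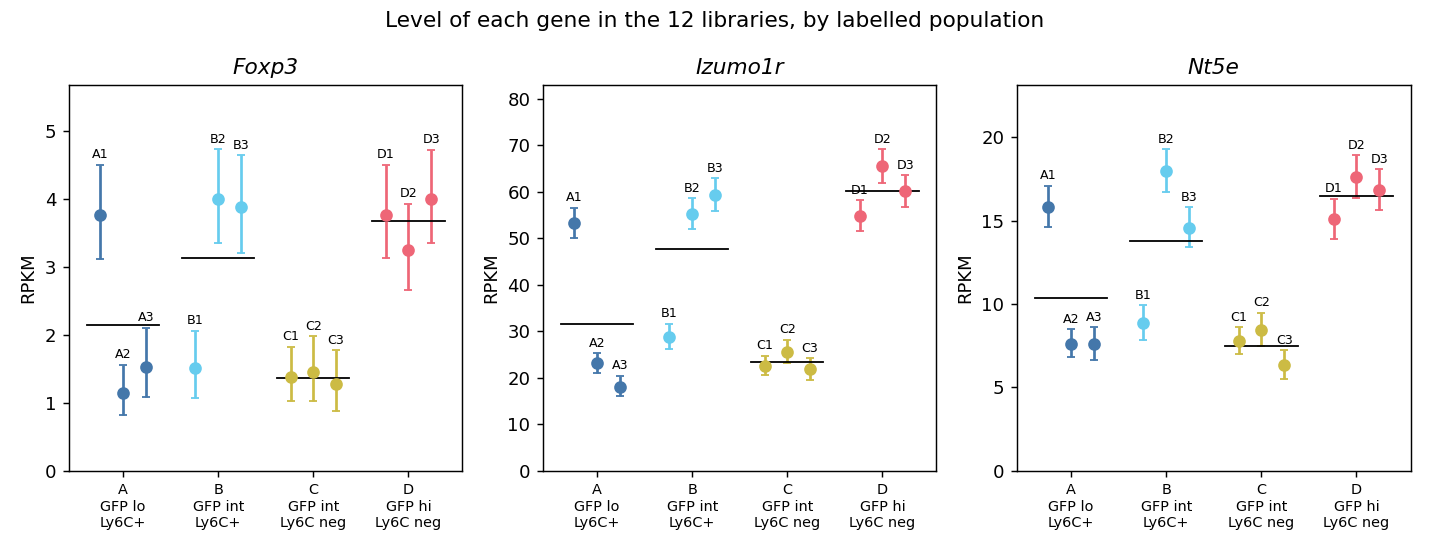
RPKM of each gene (vertical axis, from 0) in the 12 libraries, grouped by labelled population, with exact Poisson 95% intervals as bars and the population mean as a horizontal line. For each gene the 3 D libraries, A1, B2 and B3 sit together above the other 6, and in A and B the mean falls between the high and the low libraries.

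The order of the population means was C, A, B, D from low to high for each of the 3 genes, and no difference between neighbours in that order passed the test when all 12 libraries were used. Without A1 and B1, which leaves 2 libraries each in A and B, Foxp3 averaged 3.94 ± 0.086 RPKM in B and 1.34 ± 0.274 in A, Izumo1r 57.3 ± 2.81 in B and 20.6 ± 3.55 in A, and Nt5e 16.3 ± 2.41 in B and 7.60 ± 0.034 in A (SD, n = 2 each). A then stood below C for Foxp3 and Izumo1r and just above it for Nt5e, and B stood above D for Foxp3. That the same 6 libraries were the highest was also true of Nr4a1 and of 621 of the 10021 genes tested (6.2%). The range was 3.25 to 4.00 RPKM in those 6 libraries, against 1.15 to 1.53 in the others, for Foxp3, 53.2 to 65.5 against 18.1 to 28.8 for Izumo1r, and 14.6 to 18.0 against 6.32 to 8.84 for Nt5e. Since these are bulk libraries, more cells that express a gene and more transcript per cell cannot be told apart.

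The step between libraries labelled GFP high and GFP intermediate, both labelled Ly6C negative (D against C), gave the largest difference of the 3 genes in the fit of 12 libraries, in which it did not pass the test. Every D library was above every C library for each gene, as for 1414 of the 10021 genes tested (14.1%), and D was above C in 3 of 3 mice. Ly6c1 averaged 43.7 RPKM in D and 64.3 RPKM in C, under 1 Ly6C label. The ratio of D to C by mouse was 2.74, 2.24 and 3.15 for Foxp3, 2.43, 2.56 and 2.76 for Izumo1r, and 1.94, 2.09 and 2.66 for Nt5e. In limma over all 12 libraries, on log2(RPKM + 0.5), the D minus C difference was 1.16 ± 0.34 for Foxp3 (SE, adjusted p = 0.117), 1.35 ± 0.33 for Izumo1r (0.106) and 1.09 ± 0.27 for Nt5e (0.106). In that fit 1 gene of 10021 was called (0.00998%) at an adjusted p under 0.05, and 1817 had an unadjusted p under 0.05. Fold changes on this scale understate the change of low genes such as Foxp3.

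With the D and C libraries fitted alone, an alternative fit that leaves the differences as they are and changes their error, all 3 passed the test. They were 1.16 ± 0.11 for Foxp3 (SE, limma adjusted p = 0.000721), 1.35 ± 0.08 for Izumo1r (7.36e-05) and 1.09 ± 0.11 for Nt5e (0.000895), where 3.35% of genes were called higher and 1.45% lower. Without C3, the library with plasma cell transcripts, they were 1.12, 1.30 and 0.98 (adjusted p = 0.000412, 9.97e-06 and 0.000111), with 4.48% of genes called higher. The fit of all libraries shares 1 estimate of spread over all 4 populations, and it called the 3 differences when A1 alone was left out (adjusted p = 0.0388 for Foxp3, 0.0297 for Izumo1r and 0.0311 for Nt5e) or when B1 alone was (0.038, 0.0315 and 0.0307). Of the 10021 genes tested, 288 were called without A1 and 398 without B1. With both left out the adjusted p was 9.6e-05 for Foxp3, 1.17e-05 for Izumo1r and 0.00013 for Nt5e, and 7.63% of genes were called. The 3 genes were chosen with earlier results of these data known, so their p-values are descriptions.

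The step between libraries labelled GFP intermediate and GFP low, both labelled Ly6C positive (B against A), turned on mouse 1. Ly6c1 averaged 43.9 RPKM in B and 64.6 RPKM in A. B was below A in mouse 1 and above it in mice 2 and 3 for each gene. The ratio of B to A was 0.401, 3.49 and 2.53 for Foxp3 in mice 1, 2 and 3, 0.542, 2.39 and 3.28 for Izumo1r, and 0.559, 2.36 and 1.92 for Nt5e. Over 12 libraries the B minus A difference was 0.49 for Foxp3 (limma adjusted p = 0.4), 0.68 for Izumo1r (0.237) and 0.43 for Nt5e (0.359), where 2.23% of genes were called. Leaving out A1 and B1, which leaves 2 libraries in each of A and B, gave 1.28 (0.000324), 1.46 (4.25e-05) and 1.04 (0.00111), with 10.9% of genes called. Without A1 alone Izumo1r was called too, at 1.14 (0.0452), with 237 of 10021 genes called. Whether the D minus C and B minus A steps differ was tested as the difference of steps, which was 0.67 for Foxp3 (adjusted p = 0.515), 0.66 for Izumo1r (0.51) and 0.67 for Nt5e (0.428). Leaving out A1 and B1 turned its sign for Foxp3 (-0.12, adjusted p = 0.805) and Izumo1r (-0.11, 0.786) and left 0.05 for Nt5e (0.921). Leaving out C3 as well turned it for all 3, at -0.16 for Foxp3, -0.16 for Izumo1r and -0.06 for Nt5e, and none of these passed the test.

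Between the ends of the sort, D against A, all 3 genes had higher means in D, and none was called over 12 libraries. The D minus A difference was 0.78 ± 0.34 for Foxp3 (SE, limma adjusted p = 0.241), 1.08 ± 0.33 for Izumo1r (0.16) and 0.73 ± 0.27 for Nt5e (0.196), with 0.00998% of genes called. The call turned on A1, and without it the difference was 1.18 (0.0449), 1.53 (0.0341) and 1.07 (0.0371), with 362 of 10021 genes called. When B1 was left out too, these differences kept their values and the adjusted p was 0.000252, 1.37e-05 and 0.000425, with 8.84% of genes called.

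Of the libraries labelled GFP intermediate, those labelled Ly6C negative (C) had lower means of the 3 genes than those labelled Ly6C positive (B), again short of the threshold. Ly6c1 ran the other way from these labels, at 64.3 RPKM in C and 43.9 RPKM in B. The C minus B difference was -0.87 for Foxp3 (limma adjusted p = 0.304), -0.96 for Izumo1r (0.287) and -0.79 for Nt5e (0.287), with 0.00998% of genes called. Without B1 alone it was -1.25 (0.0429), -1.28 (0.0483) and -1.07 (0.043), with 386 of 10021 genes called. With A1 left out too, the adjusted p was 0.00016, 5.26e-05 and 0.000425, with 7.74% of genes called. Both populations carry the same GFP label, while their Nr4a1 transcript was 23.4 to 28.3 RPKM in C and 64.6 and 73.3 RPKM in B3 and B2, beside 36.0 in B1.

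The remaining pairs showed no call for the 3 genes in any of the fits tried. D minus B was 0.29 for Foxp3 (95% interval -0.443 to 1.019, limma adjusted p = 0.963), 0.39 for Izumo1r (0.958) and 0.30 for Nt5e (0.958), with 0% of genes called and 410 at an unadjusted p under 0.05. Without A1 and B1 it was -0.09 for Foxp3 (interval -0.371 to 0.184), 0.07 for Izumo1r (-0.172 to 0.305) and 0.02 for Nt5e (-0.248 to 0.297), so that Foxp3 changed sign. C minus A was -0.38 for Foxp3 (0.6), -0.27 for Izumo1r (0.711) and -0.36 for Nt5e (0.535), with 0% of genes called and 1422 at an unadjusted p under 0.05. Leaving out A1 and B1 gave 0.03 for Foxp3, 0.18 for Izumo1r and -0.03 for Nt5e, the first 2 with the sign turned, and 0% of genes were called in either pair.

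**Figure D2:**
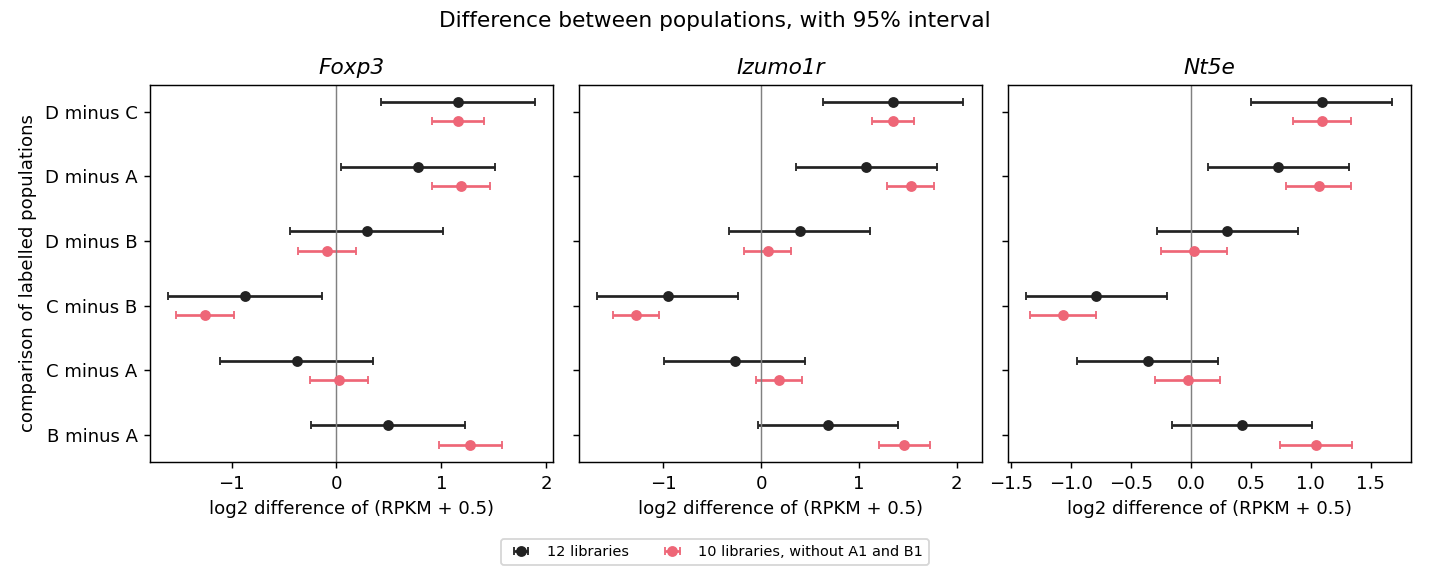
Difference of each pair of labelled populations on log2(RPKM + 0.5) (horizontal axis, points with 95% intervals from limma), for 12 libraries in black and for 10, without A1 and B1, in red. The D minus C points (1.16 for Foxp3) cannot move, since neither left-out library is in D or C, and their intervals narrow, while D minus B and C minus A lie near 0 without A1 and B1.

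The ratios between the 3 genes varied less over the libraries than their levels did. Izumo1r over Foxp3 ranged from 11.8 in A3 to 20.2 in A2, Nt5e over Foxp3 from 3.75 in B3 to 6.65 in A2, and Izumo1r over Nt5e from 2.39 in A3 to 4.07 in B3. These are ratios of RPKM, which are per length. Across the 12 libraries, Pearson's r of log2(RPKM + 0.5) was 0.953 between Foxp3 and Izumo1r, 0.967 between Foxp3 and Nt5e, and 0.973 between Izumo1r and Nt5e. The points share mice and fall into 2 separate sets, so r mainly reads the gap between the sets. Within the 6 higher libraries it was -0.6, -0.21 and 0.32 for the same pairs, and within the other 6 it was 0.04, 0.52 and 0.61. With 6 points, and for Foxp3 few reads, these within-set values are descriptions.

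**Figure D3:**
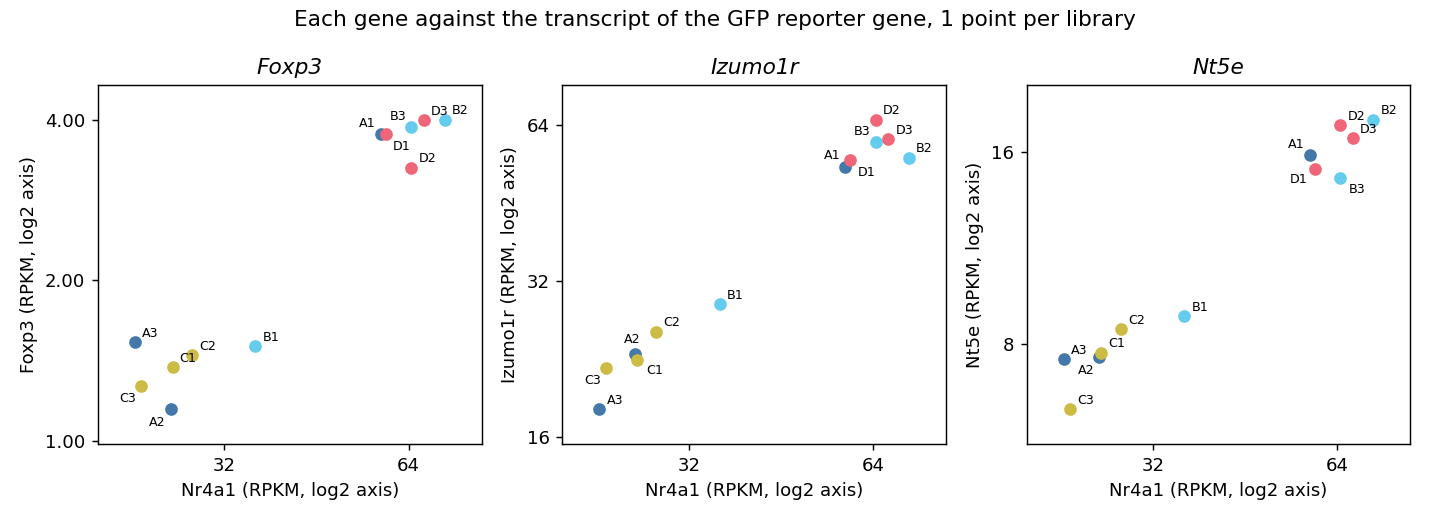
Each gene against Nr4a1 in the 12 libraries, both in RPKM on log2 axes, coloured and named by labelled population. A1, B2 and B3 lie with the D libraries at Nr4a1 of 57.7 to 73.3 RPKM, and B1 lies with A2, A3 and C, at 36.0 RPKM.

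Many other genes followed the same pattern over the libraries. Of 8848 genes averaging 2 RPKM or more, r over the 12 libraries was above 0.9 with Foxp3 for 208, with Izumo1r for 239 and with Nt5e for 228, and below -0.9 for 74, 66 and 58. The genes most like Foxp3 were Tnfrsf9, a costimulatory receptor (r = 0.99), Pdcd1, an inhibitory receptor (0.989), the T-box factor Eomes (0.989), Lrmp (0.988) and Ift80 (0.987). Eomes was 8.73 to 10.2 RPKM in D, against 0.22 to 0.48 in C, and was 7.62 in A1. Those most unlike Foxp3 were the cytoskeletal gene Vim (-0.985), Pdlim1 (-0.979) and the ETS-family repressor Etv3 (-0.973). Vim was 86.7 to 90.9 RPKM in D, against 114 to 119 in C, so that a strongly negative r went with a small difference.

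For Izumo1r the closest were Ephx1, the microsomal epoxide hydrolase (r = 0.99), the GATA cofactor Zfpm1 (0.988), Il2rb, a chain of the interleukin-2 receptor (0.987), Nr4a1 (0.986) and the follicle-homing receptor Cxcr5 (0.985), and the most unlike were Sh3bp5 (-0.968), Iqgap2 (-0.966) and Thy1 (-0.965). Ephx1 was 80.2 to 94.6 RPKM in D, against 40.2 to 44.0 in C. For Nt5e they were the ARF exchange factor Cyth3 (0.99), Xdh, which breaks down purines (0.989), the transcription factor Sox4 (0.988), Lad1 (0.985) and Dennd2d (0.984), and the most unlike were Ass1, of arginine synthesis (-0.966), Vim (-0.965) and Ggt5 (-0.963). Xdh was 9.16 to 9.48 RPKM in D, against 3.40 to 5.31 in C. Counted from the most alike, Nt5e stood at place 37 for Foxp3 and Izumo1r at place 76, so none of the 3 was among the 5 closest to another.

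Other genes of the regulatory T cell programme were measured for 16 of 28 on a list. The rest (Lrrc32, Itgae, Entpd1, Il10, Ebi3, Fgl2, Klrg1, Ccr8, Il1rl1, Areg, Socs2 and Plagl1) were not among the 10073 genes with values. Counts over this list thus cover only the 16 with values. In the 12-library fit 0 of 16 were called for D against C, with 12 at an unadjusted p under 0.05. With the D and C libraries alone 10 were higher in D (3.35% of all genes) and 0 lower (1.45%), and the median D minus C difference was 0.86, beside 0.01 over all genes tested. Without C3 as well, 12 were higher and 1, Prdm1, was lower (-0.71, limma adjusted p = 0.0176), with a median of 1.08. Of the 10021 genes tested, 449 were higher and 202 lower in that fit. In 11 of 16 every D library was above every C library (14.1% of all genes tested), and in 10 the 6 highest libraries were A1, B2, B3, D1, D2 and D3 (6.2% of all genes).

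The smallest p among these was that of Tnfrsf9, a costimulatory receptor of the TNF receptor family. Tnfrsf9 was 24.3, 19.1 and 23.2 RPKM in D1, D2 and D3, against 1.59, 1.38 and 1.65 in C1, C2 and C3, a D minus C difference of 3.47 (limma, 6 libraries, adjusted p = 2.8e-06). Of its relatives, the costimulators Tnfrsf4 differed by 0.82 and Tnfrsf18 by 0.35 (0.0203). Chains of the interleukin-2 receptor, on which regulatory T cells depend, were also higher in D. Il2rb was 30.3 to 34.6 RPKM in D, against 7.02 to 8.47 in C (1.95). Il2ra, the high-affinity chain CD25, was 2.21 to 2.56 RPKM in D, against 0.548 to 0.758 in C (1.32), a low level in both.

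The Ikaros-family factors Ikzf2 (Helios) and Ikzf4 (Eos), which act with Foxp3 in regulatory T cells, differed by 2.47 and 1.61. Ikzf2 was 5.43 to 5.98 RPKM in D, against 0.568 to 0.686 in C. The inhibitory receptor Ctla4 was 21.8 to 32.3 RPKM in D, against 5.71 to 10.8 in C (1.60), the costimulator Icos differed by 0.77, and the orphan receptor Gpr83 by 0.89. Of the 6 that did not pass with C3 in the fit, Tigit differed by 0.95, Tnfrsf1b by 0.34, Nrp1 by 0.32, Capg by -0.02, Swap70 by 0.43 and Prdm1 by -1.40. Prdm1, a factor of plasma cells as well as effector T cells, was 12.3 RPKM in C3, against 1.14 to 2.66 in the other 11 libraries, and Swap70, also active in B cells, was 10.5, against 0.602 to 2.88.

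**Figure D4:**
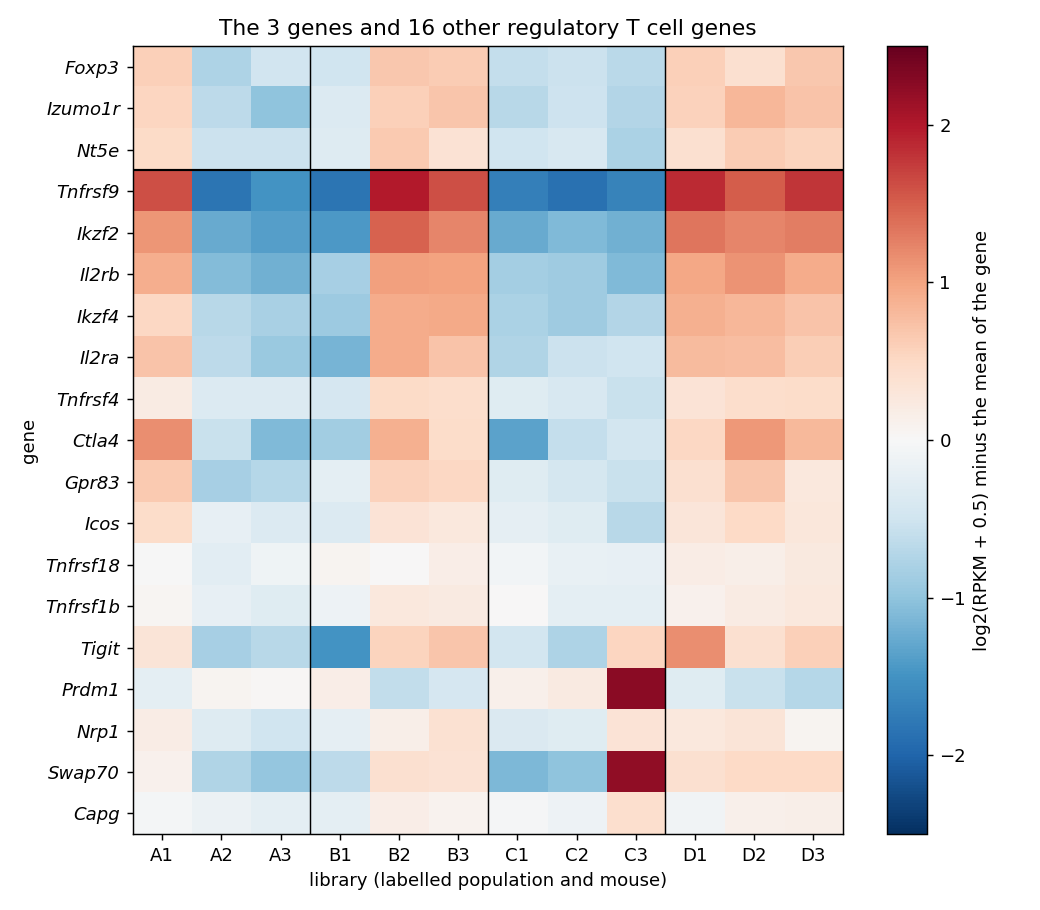
The 3 genes (top) and the 16 other regulatory T cell genes measured, ordered by p of D minus C, in the 12 libraries. Colour gives log2(RPKM + 0.5) minus the gene's mean over libraries, red above it and blue below. The upper rows are red in A1, B2, B3 and D, and C3 stands out in Prdm1 (12.3 RPKM) and Swap70 (10.5 RPKM).

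When A1 and B1 were left out, 11 of the 16 were called for D against C, all higher (7.63% of all genes were called either way), and 11 for B against A, all higher in B (10.9%). In the same fit 12 were called for D against A (8.84%) and 10, all lower in C, for C against B (7.74%). The summed RPKM of the 16 genes was 195 to 209 in D, against 92.2 to 115 in C, and was 86.4 to 196 in A and 92.8 to 208 in B.

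Genes associated with anergy, the other setting in which folate receptor 4 and CD73 are high, were measured for 17 of 18. With the D and C libraries alone 14 were higher in D and 0 lower, where 3.35% and 1.45% of all genes were, with a median difference of 0.84, beside 0.01 over all genes. Pdcd1 was 8.54 to 10.4 RPKM in D, against 1.52 to 1.77 in C (2.23, limma adjusted p = 1.91e-05). Cd200, a ligand of an inhibitory receptor, differed by 1.93 and the inhibitory receptor Lag3 by 2.95. Nr4a1, also on this list, differed by 1.28. Since its regulatory DNA drives the GFP used for the sort, its difference is no independent result. Over 12 libraries 0 of 17 were called.

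Genes that make, carry or read adenosine and nucleotides, the pathway of CD73, were measured for 11 of 15. Entpd1, whose product makes the AMP that CD73 uses, was not among the genes with values. With the D and C libraries alone 3 were higher in D (3.35% of all genes) and 0 lower (1.45%), and the median difference was 0.08, beside 0.01 over all genes. Slc29a1, a nucleoside transporter, was 21.8 to 23.9 RPKM in D, against 10.5 to 13.0 in C (0.90). Adora2a, the adenosine receptor, was 10.2 to 11.3 RPKM in D, against 6.37 to 6.44 in C (0.71), and P2rx7, an ATP-gated channel, differed by 0.78. Dpp4, a peptidase that holds adenosine deaminase at the surface in humans, differed by 0.42 and was not called (adjusted p = 0.0516).

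Genes of folate handling were measured for 10 of 13. With the D and C libraries alone 2 were higher in D (3.35% of all genes) and 0 lower (1.45%), and the median difference was -0.04. Those were Slc19a1, the folate carrier, at 6.98 to 7.45 RPKM in D, against 4.19 to 5.58 in C (0.52), and Shmt1, an enzyme of one-carbon metabolism (0.49). Of the 28 known regulators and partners of Foxp3 on a list, all measured, 3 were higher (3.35% of all genes) and 1 lower (1.45%), with a median of 0.08. Dnmt3a, a DNA methyltransferase, differed by 0.50, Stat5a, which carries the interleukin-2 signal, by 0.33 and the NF-kB subunit Rel by 0.36, while the RUNX factor Runx3 was 17.5 to 20.0 RPKM in D, against 22.7 to 24.5 in C (-0.35). In the 12-library fit 0 genes of each of these lists were called for D against C.

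Markers of other cells were read beside these results. Myeloid markers (2 of 7 measured) summed to 19.2 to 20.6 RPKM in D, against 19.4 to 43.1 in C, the highest in C3. Cd8b1, the 1 measured of 7 CD8 T and NK cell markers, was 10.2 to 11.2 RPKM in D, against 12.7 to 16.0 in C, and Cd44, the 1 measured of 7 effector and memory markers, was 6.41 to 7.37, against 7.08 to 12.8. Proliferation markers (Mki67 and Top2a, 2 of 5 measured) summed to 4.71, 6.93 and 7.18 RPKM in D, against 2.72 and 1.82 in C1 and C2 and 24.3 in C3, and to 6.36 in A1, 6.68 in B2 and 4.88 in B3. They were thus higher where the 3 genes were high, except in C3, and their part in the result was not tested.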

How the data were processed

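RNA was measured in 12 libraries, 4 populations from 3 mice, grouped by the labels. Per the labels' protocols, RNA came from cells sorted into lysis buffer (Quick-RNA MicroPrep kit), was made into cDNA from polyadenylated RNA (SMART-seq v4), and was prepared as libraries with NexteraXT. STAR, mm9 and mm10 stand in the submitters' processing notes without version or role, and no source used here gives the counting tool, annotation or strand use. The authors deposited 1 table of RPKM values per gene and library, per the file headers, without coordinates. Multiplied by length and depth, 100.0% of each library's examined values came within 0.1 of a whole read. These reads gave the depth, the intervals and 1 alternative fit.

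Values were tested as log2(RPKM + 0.5) by limma (version 3.58.1, R version 4.3.3), using its mean-variance trend, for the 10021 genes averaging 0.5 RPKM or more, over all 12 libraries with no block, for 6 pairs of populations and the difference of the D minus C and B minus A steps. Benjamini-Hochberg adjustment ran over all genes tested in each comparison, with a threshold of 0.05 on the adjusted p. The limma fit and the recovery of depth were tried on simulated data. For the fit, known changes were set in D alone, with noise of the size seen among the D libraries. The spread within A and B was not covered by it. Python 3.11.15 with numpy 2.4.6, pandas 2.3.3, scipy 1.17.1 and matplotlib 3.10.9 did the rest. Fits of 6 libraries and of fewer libraries, other pseudocounts, filters and scalings, no trend, limma-voom and the mouse block were the alternatives. The fit of 6 libraries without C3 was chosen after seeing the data. The members, gene lists and libraries left out were chosen with earlier results of these data known, so the p-values of the members and the counts over lists are descriptions. Genes were named as the 5 highest and 3 lowest in Pearson's r with each member among genes averaging 2 RPKM or more, and by smallest p of D minus C in the fit of those 6 libraries, up to 10 of the regulatory T cell list and 4 of each other list. The other regulatory T cell genes, the neighbours of Foxp3, Eomes, Vim, Ephx1 and Xdh values, and the markers were given after their values were seen.

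The labels state that libraries with 1 mouse number come from 1 animal. Deviations from the population means correlated across genes by -0.072 on average between libraries of the same number (range -0.613 to 0.379, 1 of 18 pairs over 0.1). The average was 0.032 between libraries that differ in both number and population. Deviations cancel within each population, so these averages are not independent of each other.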

Additional observations from a re-analysis of the deposited data

How the results depend on the processing

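Every pairwise difference of the 3 genes was uncalled over all 12 libraries and under other pseudocounts, filters, scalings, no trend, limma-voom on recovered reads, and without C3 alone. The mouse block changed no call: with it D minus C was 1.16 for Foxp3 (adjusted p = 0.203), 1.35 for Izumo1r (0.198) and 1.09 for Nt5e (0.198). The block and no trend gave 2 and 3 genes called for B minus A, and limma-voom 369, against 223. The calls turned on which libraries shared the fit. For D minus C, leaving out A1 and B1 changed the error and not the difference. Why A1 and B1 stood apart was not tested. In the order Foxp3, Izumo1r and Nt5e, D minus C was called at 1.16, 1.35 and 1.09 in the fit of 6 libraries and without A1 and B1, and at 1.12, 1.30 and 0.98 without C3 as well in either. Without A1 and B1, with or without C3, D minus A was called at 1.18, 1.53 and 1.07 and B minus A at 1.28, 1.46 and 1.04. C minus B was called at -1.25, -1.28 and -1.07 without A1 and B1, and at -1.22, -1.24 and -0.96 without C3 as well. Signs turned, with no call, for Foxp3 D minus B (-0.0938 in both fits), for C minus A (0.0265 and 0.18 for Foxp3 and Izumo1r without A1 and B1, and 0.0635, 0.23 and 0.0846 for the 3 genes without C3 as well), and for the difference of steps (-0.12 and -0.11 for Foxp3 and Izumo1r, and -0.16, -0.16 and -0.0605 for the 3 genes). The last could not be had from 6 libraries.

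Leaving out 1 library at a time, D minus C ranged from 1.10 to 1.23, 1.29 to 1.42 and 0.98 to 1.18, D minus A from 0.50 to 1.18, 0.76 to 1.53 and 0.56 to 1.07, and C minus B from -1.25 to -0.67, -1.28 to -0.77 and -1.07 to -0.58 for the 3 genes. Foxp3 D minus B ranged from -0.0938 to 0.49, C minus A from -0.66 to 0.0265 for Foxp3 and -0.58 to 0.18 for Izumo1r, and Izumo1r B minus A from 0.37 to 1.14. Of the 16 other regulatory T cell genes, 0 were called over 12 libraries. For D minus C, 10 were called with 6 libraries, 13 of these 6 without C3, 11 without A1 and B1 and 15 without C3 as well. Without A1 and B1, and then also without C3, 12 and 15 were called for D minus A, 10 and 14 for C minus B, and 11 and 16 for B minus A. Of the 10021 genes tested, 886 and 1357 were called for D minus A, 776 and 873 for C minus B, and 1094 and 1638 for B minus A. With C3 also left out, 1 of the listed genes was lower in D minus A, 1 was lower in B minus A, and 1 was higher in C minus B. Leaving out 1 library gave 0 to 9 for D minus C, 0 to 5 for D minus A and for C minus B, and 0 to 1 for B minus A. Over all genes the same fits called 1 to 398 for D minus C, 1 to 362 for D minus A, 0 to 386 for C minus B and 0 to 461 for B minus A. Over all genes, D minus C called 1 over 12 libraries, 481 with 6, 651 with these 6 without C3, 765 without A1 and B1, and 841 without C3 as well. Foxp3 rested on 34 to 136 reads a library, which limits what can be read between libraries of 1 set. Pearson's r over the 9 libraries without A1, B1 and C3 was 0.948 between Foxp3 and Izumo1r, 0.965 between Foxp3 and Nt5e, and 0.978 between Izumo1r and Nt5e.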
